A study of Mus musculus with 18 samples.

Results

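The CLP fraction of a mouse T cell lymphoma is described here through its stress genes, set against healthy LSK cells and against the other fractions of the same lymphomas. It is 3 of the 18 Affymetrix arrays of the study, chosen by sample title. The CLP arrays hold cells sorted as common lymphoid progenitors out of lymphomas of the thymus. The 12 further lymphoma arrays hold double-negative thymocyte stages, DN1 to DN4, with 3 arrays each. The LSK arrays, also 3, hold lineage-negative cells with SCA1 and KIT from bone marrow of healthy wildtype mice aged 18 months. All 5 lymphoma groups share 1 history per the labels. Mice with an Lck-Cre transgene were irradiated below a lethal dose and received bone marrow infected with a retrovirus, so that NPM-ALK was expressed in early T cells, and they were killed when moribund. NPM-ALK, a fusion of nucleophosmin with a receptor kinase, drives anaplastic large cell lymphoma, and the Lck promoter drives Cre in cells of the T lineage. The sort markers named in the labels (SCA1, KIT, IL7Rα, CD44, CD25, CD8, CD4 and a lineage panel) include no marker that would tell donor from host cells. LSK cells therefore differ from CLP cells in tissue, stated age, genotype and treatment at once, and these cannot be told apart.

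A common lymphoid progenitor is a bone marrow cell that gives rise to B, T and innate lymphoid cells, and it is defined by IL7Rα and FLT3 with low KIT and SCA1. Cells meet stress with a few transcription programs. The integrated stress response lowers translation through kinases that phosphorylate eIF2α and lets ATF4 raise genes of amino acid supply. NRF2 raises antioxidant genes that BACH1 represses, HIF proteins answer low oxygen, p53 answers DNA damage, and FOXO and TFEB proteins link nutrient shortage to autophagy. FOXO and HIF proteins are also known for keeping blood stem cells at rest.

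Each array gave 1 log2 signal per probe set, and the brightest of the probe sets with 1 gene symbol stood for each of 22180 genes. Olfactory receptor genes, which blood cells hardly express, served as a gauge of background. Their upper end (the 95th percentile) lay at 5.36 to 5.71 on the 18 arrays, and signals at or under it were read as background. Where the lower of 2 levels lies there, the log2 difference is no exact fold. The CLP arrays were the least alike of any group, with correlations of 0.968 to 0.975 over genes and a median SD of 0.235, against 0.138 to 0.184 in the DN fractions and 0.154 in LSK. Array weights from the lymphoma arrays were 0.363, 0.507 and 0.529 for the 3 CLP arrays and 0.458 to 2.22 for the DN arrays. Xist, which silences 1 X chromosome in female cells, read 3.81 to 4.09 in CLP and 3.55, 10.74 and 10 in LSK, so LSK arrays 2 and 3 differ from the CLP arrays in sex-linked RNA. Eif2s3y, a gene of the Y chromosome, read 8.74 to 9.15 in CLP and 8.42, 7.43 and 4.69 in LSK. LSK arrays 1 and 3 thus differ in both and do not come from 1 animal, and LSK array 2 held RNA of both genes. The description fields give another origin, mice that were aged and either NIPA knockout or wild type, with a dose of 4 Gy on 12 arrays, among them 2 CLP arrays and 1 LSK array. This conflicts with the titles, which were followed. The labels do not say whether the arrays of a group come from separate animals, so p-values measure the spread between these arrays.

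The defining genes of a common lymphoid progenitor were only partly present in the CLP arrays. Of 10 measured members 5 were called higher and 4 lower in CLP than in LSK (limma, adjusted p under 0.05). Over all 22180 genes these shares were 6.54% and 11.2%. Higher were Il7r (log2 difference 1.89, adjusted p = 0.0202), Dntt (1.45), Ly6d (1.23), Cd27 (1.08) and Rag2 (0.7). Lower were Flt3, Cd34, Kit and Ighm, and Cd93 was not called. Flt3, the receptor that defines the cell together with IL7Rα, read 4.61, 4.57 and 4.86 in CLP, against 9.14, 9.45 and 8.68 in LSK, so it lay under background in every CLP array. Cd34 and Rag2 lay under background in CLP as well, and Rag2 also averaged 4.01 in LSK, 3.8 in DN1 and 3.67 in DN2. Il7r, which encodes IL7Rα, read 8.31, 6.97 and 8.68 in CLP, 8.44 to 9.88 over the 12 DN arrays, and 6.84, 5.64 and 5.82 in LSK. Il7r was lower in CLP than in the mean of the DN fractions (log2 difference -0.95, SE 0.222, adjusted p = 0.0229). Against single fractions it was called below DN1 only (-1.76, adjusted p = 0.000554). It was not called below DN2 (-0.66, adjusted p = 0.268), DN3 (-0.87, adjusted p = 0.169) or DN4 (-0.52, adjusted p = 0.442). Kit read 9.22 to 9.72 in CLP, between DN1 and DN2 above it and DN3 and DN4 below it. Ly6d, a surface protein of lymphoid progenitors, read 7.43, 7.75 and 8.06 in CLP and was above the DN mean by log2 1.11 (SE 0.16, adjusted p = 0.00091). This came from DN1 (mean 6.08) and DN2 (5.81). CLP was not called against DN3 (7.47, difference 0.28, adjusted p = 0.631) or DN4 (7.18, difference 0.57, adjusted p = 0.202).

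Most T lineage genes were far above LSK in the same arrays, and some were below the mean of the DN fractions. Cd3e, a chain of the T cell receptor complex, read 12.45, 12.64 and 12.5 in CLP, 11.98 to 12.98 over the DN arrays and 4.79 to 5.46 in LSK. Of 18 measured T lineage genes 15 were called higher in CLP than in LSK and 1, Il2ra, lower, against 6.54% higher and 11.2% lower over all 22180 genes (limma, Benjamini-Hochberg adjusted p under 0.05). Against the DN mean 1 of the 18 was higher, Cd5 (log2 difference 0.44), and 5 were lower, against 1.51% higher and 2.93% lower over all genes. Cd5 averaged 9.3 in CLP, above DN1 (7.94) and DN2 (8.23) but not above DN3 (9.61) or DN4 (9.67). The 5 lower genes were Cd28 (-0.72, adjusted p = 0.005), Themis (-0.61, adjusted p = 0.00652), Cd4 (-0.57, adjusted p = 0.0179), Cd8a (-0.56, adjusted p = 0.0233) and Il2ra. Cd8a lay under background in every CLP array and read 4.93 to 5.71 over the DN arrays, which is also within or under the background range. Il2ra encodes the sort marker CD25, which is high in DN2 and DN3 by the gates. Cd4 encodes a sort marker as well and read 5.4, 5.55 and 5.87 in CLP, around background. It was called below DN1 (-1.03, adjusted p = 0.000399) and DN2 (-0.78, adjusted p = 0.00992). It was not called below DN3 (-0.33, adjusted p = 0.414) or DN4 (-0.13, adjusted p = 0.794). Cd8a, Il2ra and Cd4 are therefore not read as a loss of T lineage RNA. Il7r, Dntt and Cd27 were above LSK in CLP, but also in all 4 DN fractions. With Flt3 under background and Cd3e at the level of the DN arrays, the RNA does not bear out the label of a common lymphoid progenitor in full. CLP is used below as the name of the sort gate only. Of markers of other cells, the mean level over each list was 5.13 to 5.15 in CLP for 13 B cell genes, 9 of them under background in every CLP array, against 5.37 to 6.15 in LSK. For 15 macrophage and monocyte genes, 11 of them under background in CLP, it was 5.21 to 5.28 in CLP and 5.6 to 5.74 in LSK. For 15 granulocyte and mast cell genes, 10 of them under background in CLP, it was 5.14 to 5.25 in CLP and 6.79 to 7.85 in LSK, and for 9 erythroid and megakaryocyte genes 5.65 to 5.82 in CLP and 7.1 to 7.32 in LSK. Their part in the differences from LSK was not tested.

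**Figure D1:**
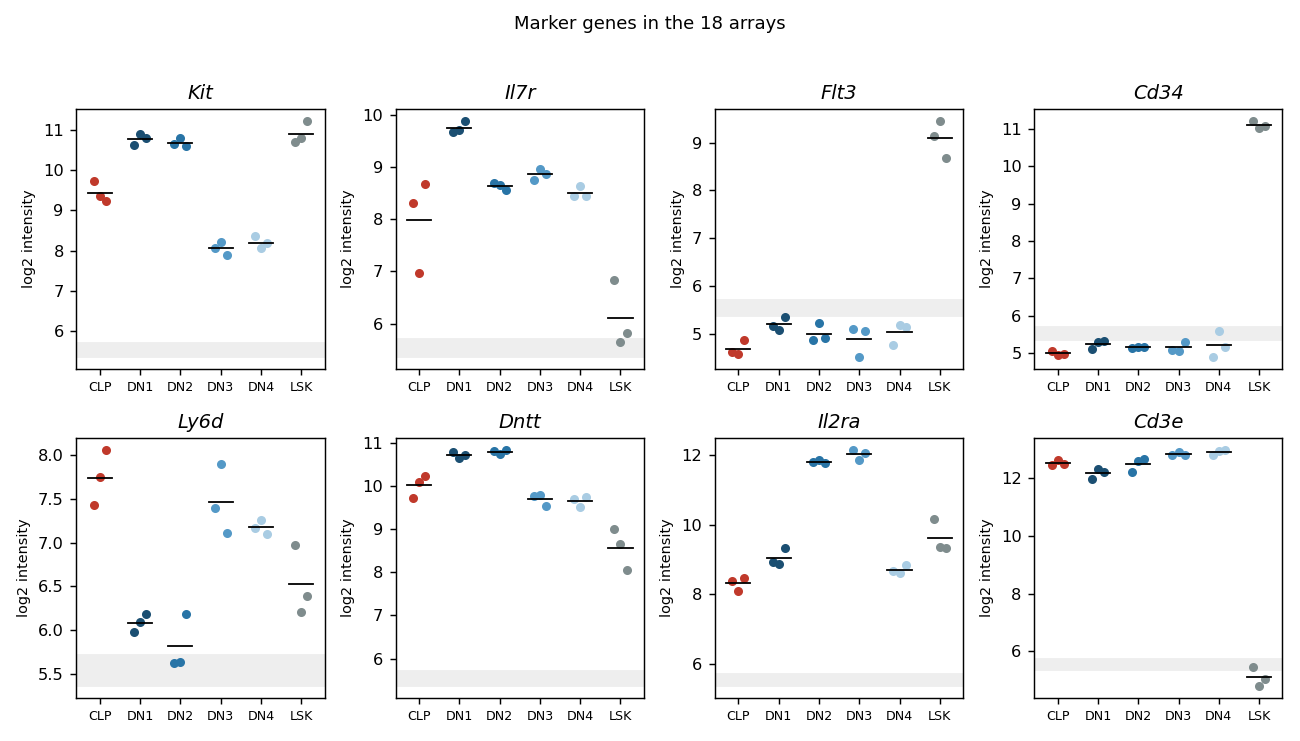
Log2 intensity of 8 marker genes on each of the 18 arrays, with CLP at the left, DN1 to DN4 in the middle and LSK at the right. Points are arrays, black lines are means of 3 arrays, and the grey band is the background range of 5.36 to 5.71. Flt3 and Cd34 lie under the band in CLP and high in LSK, while Cd3e is near 12.5 in CLP and near 5 in LSK.

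More stress genes were lower than higher in CLP relative to LSK. A gene was called when its limma p-value, adjusted by Benjamini-Hochberg over all 22180 genes, was under 0.05. Of 246 genes on 10 stress lists 227 were measured, and 19 of these were higher and 92 lower in CLP than in LSK. That is 8.37% and 40.5% of the members, against 6.54% higher and 11.2% lower over all genes. Without LSK replicate 1 the number of lower stress genes was 59. The median log2 difference was -0.54 over the stress genes and 0.07 over all genes. Stress genes were expressed more often than the average gene, since 217 of 227 stress genes and 12548 of 22180 genes lay above the array median on at least 3 arrays. Among these the shares were 8.76% higher and 42.9% lower for stress genes and 10.9% and 17.9% for all genes.

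Lower members outnumbered higher members on 9 of the 10 lists. The share of lower members was largest for the unfolded protein response, with 12 of 21, and for inflammatory NF-kB genes, with 14 of 25. It was 15 of 29 for the integrated stress response, 11 of 24 for autophagy and the lysosome, 12 of 27 for immediate early genes, 9 of 22 for FOXO and nutrient genes and 9 of 24 for antioxidant and metal genes. It was lower for p53 targets, with 6 of 24, and for heat shock genes, with 4 of 19. Hypoxia was the exception, with 6 members higher and 4 lower of 20.

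**Figure D2:**
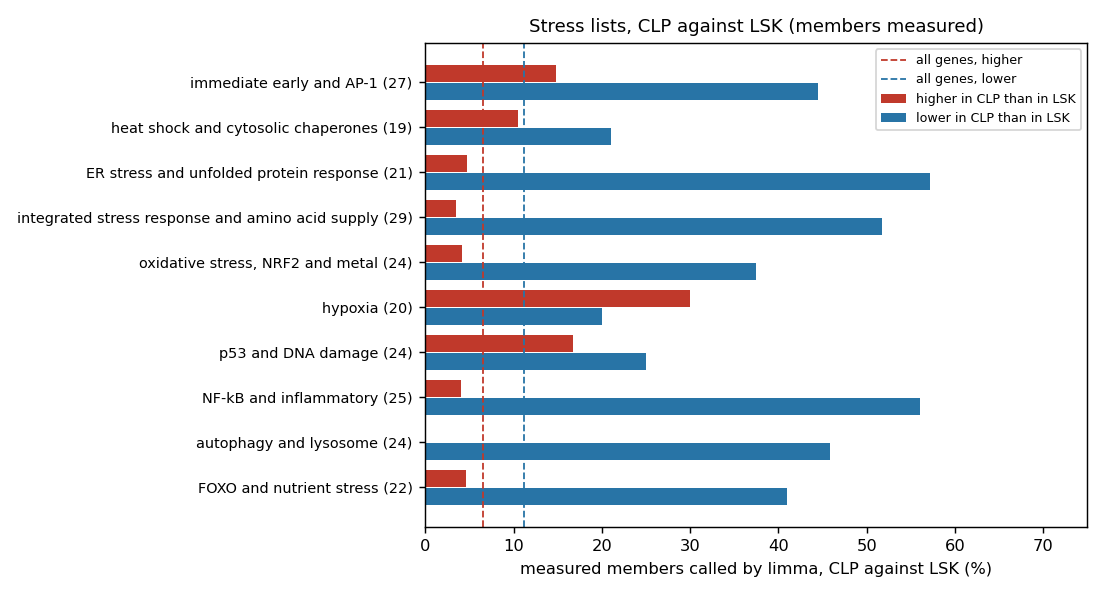
Share of the measured members of 10 stress lists that were called higher or lower in CLP than in LSK, in percent, with the number of measured members in parentheses. Dashed lines give the share over all 22180 genes, 6.54% higher and 11.2% lower. The bars for lower members pass the line on all 10 lists.

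Genes of amino acid supply and of the ATF4 program were among the larger falls. Slc7a11, the cystine transporter subunit that feeds glutathione synthesis, read 3.87, 4.21 and 3.6 in CLP, against 9.29, 8.17 and 7.75 in LSK (log2 difference -4.51, SE 0.357, adjusted p = 3.74e-05). Asns, asparagine synthetase, read 5.4, 4.77 and 6.08 in CLP, against 9.65, 9.49 and 9.77 in LSK (-4.21, SE 0.293, adjusted p = 1.72e-05). Slc7a11 lay under background in every CLP array and Asns rose above it in 1, while both were well above it in LSK, with no overlap. Vldlr, a lipoprotein receptor raised by ATF4 (-3.80), and Slc7a3, a transporter of cationic amino acids (-3.37), fell too. Of the 29 measured genes of this list 15 fell and 1 rose. The member that rose was Ddit4, an inhibitor of mTORC1 that is also on the hypoxia list (log2 difference 1.01, adjusted p = 0.0039). It was named after its values were seen, as were the other single risers given below.

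Of 24 measured antioxidant and metal genes 9 fell. Gclm, the modifier subunit of the enzyme that starts glutathione synthesis, read 6.88, 6.81 and 6.94 in CLP, against 10.4, 9.78 and 10.02 in LSK (log2 difference -3.19, SE 0.183, adjusted p = 6.03e-06). Hmox1, the heme-degrading enzyme, read 5.85, 6.12 and 5.51 in CLP, against 9.52, 8.03 and 8.92 in LSK (-3.00, SE 0.342, adjusted p = 0.000351). Gclc, the catalytic partner of Gclm (-2.10), and Sqstm1, an autophagy receptor that NRF2 raises (-2.22), fell as well. Gsr, glutathione reductase, was the 1 that rose (1.08, SE 0.239, adjusted p = 0.0138). A second probe set of Slc7a11 lay at background in both groups and is not counted here.

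In the unfolded protein response the sensor fell along with the gene whose RNA it splices. Splicing itself was not measured. Ern1, the kinase and ribonuclease that senses unfolded protein and splices Xbp1 RNA, read 7.32, 7.88 and 7.33 in CLP, against 10.83, 11.44 and 10.57 in LSK (log2 difference -3.44, SE 0.252, adjusted p = 2.4e-05). Xbp1, the transcription factor made from that RNA, read 9.62, 8.95 and 9.23 in CLP, against 11.58, 11.07 and 11.3 in LSK (-2.05, SE 0.212, adjusted p = 0.000187). Dnajb9, a chaperone of the endoplasmic reticulum (-1.5), and Creld2, a secreted protein of this response (-0.99), also fell. Edem1, which sends misfolded glycoproteins to degradation, was the 1 riser (0.91, adjusted p = 0.00869).

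Among heat shock genes the inducible HSP70 genes led the falls. Hspa1a, the inducible HSP70, read 4.15, 4.75 and 4.32 in CLP, against 9.01, 7.6 and 8.43 in LSK (log2 difference -3.94, SE 0.33, adjusted p = 5.26e-05). Hspa1b is a near-identical copy of Hspa1a, so their probe sets may share signal, and it fell too (-2.57). So did Hspa4l (-1.80) and Hsph1 (-1.62), both of the HSP110 kind that acts with HSP70. The 2 members that rose were Cryab, the small heat shock protein alpha B crystallin (1.49), and Dnajb1, a partner of HSP70 (0.83).

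Of 25 measured inflammatory NF-kB genes 14 fell. Rel, an NF-kB subunit, read 6.09, 5.32 and 6.94 in CLP, against 10.5, 10.17 and 10.61 in LSK (log2 difference -4.31, SE 0.354, adjusted p = 4.69e-05). Ccl3, an inflammatory chemokine (-4.05), and Ptgs2, the inducible cyclooxygenase (-3.71), fell to background, and Icam1, an adhesion molecule (-2.27), fell as well. Irf1, an interferon-linked transcription factor, was the 1 riser (0.63, adjusted p = 0.0315). Immediate early genes went both ways, with 4 higher and 12 lower of 27. Their falls were led by Fosl2, a FOS-related AP-1 subunit (-2.53), the nuclear receptor Nr4a2 (-2.37), the phosphatase Dusp5 (-2.27) and the small GTPase Rhob (-1.98). Other AP-1 subunits moved the other way. Jun read 11.09, 10.53 and 10.5 in CLP, against 9.21, 8.79 and 9.15 in LSK (1.65, SE 0.207, adjusted p = 0.000595), and Fosb (1.47), Fos (1.14) and the antiproliferative gene Btg2 (1.11) also rose.

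Hypoxia genes included both the largest rise and one of the largest falls of any stress list. Epas1, which encodes HIF2α, read 9.72, 9.85 and 9.2 in CLP, against 6.2, 5.76 and 6.8 in LSK (log2 difference 3.34, SE 0.278, adjusted p = 5.01e-05). Vegfa, the vascular growth factor, read 6, 6.03 and 5.84 in CLP, against 10.01, 10.36 and 10.2 in LSK (-4.23, SE 0.155, adjusted p = 9.04e-07). Adm, the vasodilator peptide adrenomedullin, read 7.19, 6.99 and 8.12 in CLP, against 5.36, 4.87 and 4.93 in LSK (2.38, SE 0.292, adjusted p = 0.000533). For these 3 genes the CLP and LSK arrays did not overlap. Egln3 and Egln1, the prolyl hydroxylases that mark HIF for decay, rose by 1.46 and 0.75, and Pdk1, which limits pyruvate entry into mitochondria, by 0.82. Pfkfb3, an activator of glycolysis, fell (-2.11). The 2 probe sets of the glucose transporter Slc2a1 moved in opposite directions and it is not read here.

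On the p53 list Cdkn1a, the cell cycle inhibitor p21, read 8.01, 8.3 and 8.45 in CLP, against 11.01, 10.42 and 11.32 in LSK (log2 difference -2.66, SE 0.239, adjusted p = 8.15e-05). Tnfrsf10b, a death receptor (-1.65), fell to background, and Sesn2, a nutrient and p53 response gene (-1.63), fell as well. Fas, another death receptor, rose by 1.42, Trp53inp1, an antiproliferative p53 target, by 1.29, and Zmat3, an RNA-binding p53 target, by 0.83. The list thus held targets of 1 factor that moved apart, with 4 members higher and 6 lower of 24.

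Autophagy genes had no member that rose. Gabarapl1, which coats autophagosomes and is also a FOXO target, read 4.65, 4.99 and 4.32 in CLP, against 10.67, 10.13 and 10.59 in LSK (log2 difference -5.81, SE 0.22, adjusted p = 9.09e-07). This was the largest change of any named stress gene, and every CLP value lay under background. Wipi2, a lipid-binding protein of early autophagosomes (-1.13), and Gabarap (-1.06) fell too, although a second probe set of Gabarap differed by only -0.02. On the FOXO and nutrient list Cited2, a regulator of HIF and of stem cell quiescence, fell (-2.34), as did Tsc1, a brake on mTORC1 (-1.60), and Prkaa1, a catalytic subunit of AMPK (-1.5). Pik3ip1, an inhibitor of PI3K, was the 1 of 22 that rose (1.48, adjusted p = 0.000103).

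**Figure D3:**
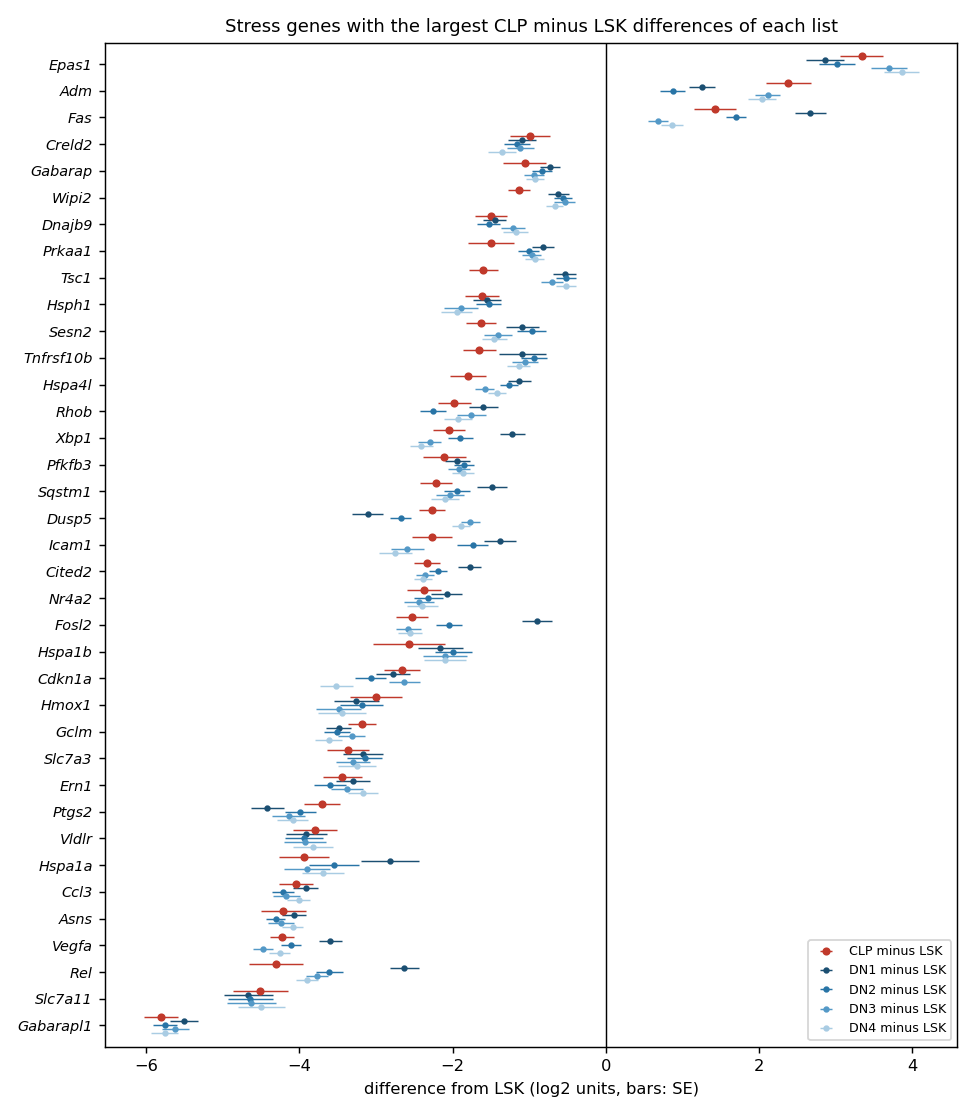
Difference from LSK in log2 units for the stress genes with the largest differences of each list, for CLP (red) and DN1 to DN4 (blue shades). Points are limma differences with SE bars, and all 5 comparisons use the same 3 LSK arrays. Asns and Gabarapl1 lie near 1 value in all 5 groups, while Tsc1 lies at -1.60 in CLP and at -0.70 to -0.52 in the DN fractions.

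The same genes were then read in the DN fractions, which share their LSK arrays with CLP, so part of the likeness is built in. Of the 227 stress genes 26 were higher and 99 lower in DN1 than in LSK, against 7.45% higher and 12.3% lower over all genes. In DN2 the counts were 24 and 112 (11.4% and 14% over all genes), in DN3 24 and 113 (11.4% and 13.1%), and in DN4 26 and 121 (11.8% and 14.9%). Asns differed from LSK by -4.21 in CLP and by -4.31 to -4.07 in the DN fractions. Gabarapl1 differed by -5.81 in CLP and by -5.76 to -5.51 in the DN fractions, and Epas1 by 3.34 in CLP and 2.86 to 3.86 in the DN fractions. Vegfa differed by -4.23 in CLP and by -4.48 to -3.60 in the DN fractions.

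Whether CLP differs from the DN fractions was tested without LSK, in 1 model of the 15 lymphoma arrays. Few stress genes differed. Against the mean of DN1 to DN4, 4 stress genes were higher and 14 lower in CLP, which is 1.76% and 6.17% of 227, against 1.51% and 2.93% over all genes. Among genes above the array median on at least 3 arrays these shares were 1.84% and 6.91% for stress genes and 2.25% and 5.77% for all genes, so the share of stress genes lay near the background. The median difference was -0.07 over stress genes and 0.02 over all 22180 genes. By list, 5 of 22 FOXO and nutrient genes were lower in CLP (list median -0.30), 3 of 24 autophagy and lysosome genes (-0.14), 3 of 24 antioxidant and metal genes (-0.07), and at most 2 on any other list. The counts depended on the fraction set beside CLP. Against DN1, 8 stress genes were higher and 33 lower in CLP (3.53% and 4.26% over all genes). Against DN2 the counts were 3 and 7 (1.09% and 1.78%), against DN3 3 and 4 (0.334% and 0.762%), and against DN4 3 and 3 (0.347% and 0.721%). With array weights, 3 of the 18 remained called against the DN mean, and these were Tsc1, Rragd and Cryab. The same 3 were called under all 26 alternatives.

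Of these 3, Tsc1 set CLP apart from every DN fraction. Tsc1 (chromosome 2), whose protein holds mTORC1 in check together with TSC2, read 6.22, 6.59 and 6.78 in CLP, 7.36 to 7.66 over the 12 DN arrays and 8.36, 8.05 and 7.97 in LSK. No CLP array overlapped a DN array, and no DN array overlapped LSK. The log2 difference was -1.03 against the DN mean (SE 0.11, adjusted p = 6.95e-05) and between -1.08 and -0.91 against single fractions, each of them called. Since DN1 to DN4 also lay below LSK, with differences of -0.70 to -0.52, the fall from LSK is neither specific to CLP nor missing in it but larger there, at -1.60 (SE 0.192). Its difference from the DN mean ranged from -1.16 to -0.88 over the alternatives.

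Cryab differed from part of the DN fractions. It read 6.16, 6.71 and 7.16 in CLP, 4.53 to 5.31 in DN1 and DN2, 5.97 to 6.51 in DN3 and DN4, and 4.58, 5.27 and 5.71 in LSK. CLP was above DN1 by 1.83 (adjusted p = 2.44e-05) and above DN2 by 1.5 (adjusted p = 0.000498), while the differences from DN3 (0.45, adjusted p = 0.403) and DN4 (0.56, adjusted p = 0.242) were not called. A second probe set of Cryab, at background, differed by 0.39 from the DN mean and by 0.66 from LSK. Over the alternatives the difference from the DN mean ranged from 0.73 to 1.34. Adm followed this order as well. It averaged 7.43 in CLP. In DN1 it stood at 6.31 and in DN2 at 5.93, while DN3 (7.16) and DN4 (7.09) came nearer to CLP. CLP lay above the DN mean by 0.81 (SE 0.189, adjusted p = 0.0232).

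Several other stress genes were lower in CLP than in the DN mean by smaller amounts. Wipi2 read 6.88 to 7.14 in CLP, 7.38 to 7.76 over the DN arrays and 8.07 to 8.16 in LSK, 3 levels without overlap (-0.53 against the DN mean, SE 0.103, adjusted p = 0.00776). Slc38a2, an amino acid transporter raised by ATF4, read 9.43 to 9.56 in CLP, 9.7 to 10.29 over the DN arrays and 10.38 to 10.67 in LSK (-0.46, adjusted p = 0.023). Trp53inp1 was lower than the DN mean (-0.62, adjusted p = 0.018) although it was above LSK. Rel (-0.83), Gclc (-0.51), the cathepsin gene Ctsb (-0.48), the FOXO transcription factor Foxo1 (-0.46) and the thioredoxin inhibitor Txnip (-0.38) were also lower. Against single fractions Rel, Ctsb, Txnip and Slc38a2 were called below DN1 only (-1.69, -0.94, -0.69 and -0.74). Gclc (-0.69 and -0.73) and Trp53inp1 (-1.03 and -0.67) were called below DN1 and DN2, and not below DN3 or DN4. A second probe set of Foxo1, at background, differed by -0.22. On the higher side were Ier5 (0.52), an immediate early gene, and Ptgs2 (0.45), whose levels of 4.61 to 4.8 in CLP and 3.86 to 4.45 in the DN arrays all lie under background. Ier5 was called above DN3 and DN4 (0.68 each) and not above DN1 (0.22) or DN2 (0.50), and it was not called against LSK (-0.16). Ptgs2 was called above DN1 only (0.71).

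**Figure D4:**
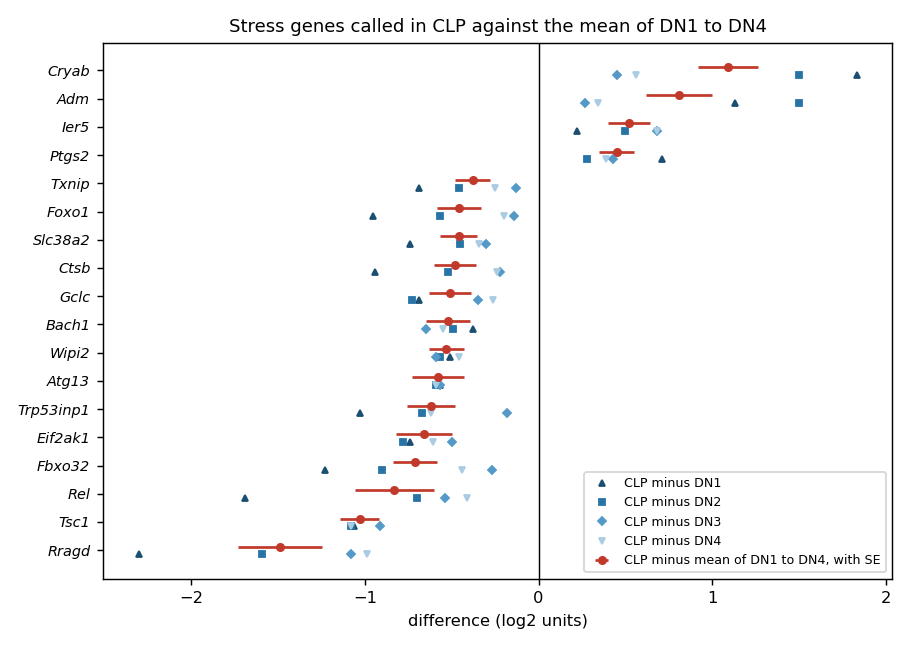
Log2 differences for the 18 stress genes that differed between CLP and the DN mean (red, with SE) and the differences from each DN fraction (blue markers). Tsc1, Wipi2 and Atg13 lie at nearly 1 value against all 4 fractions, while Rragd, Rel, Fbxo32 and Cryab spread, with DN1 farther from 0 than DN3 and DN4.

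A change from LSK was counted as specific to CLP when CLP was called against LSK and, in the same direction, against the DN mean, while no DN fraction was called in that direction against LSK. By this rule 4 of the 227 stress genes were specific to CLP, all lower. That is 1.76%, against 0.487% lower and 0.239% higher over all genes. Among genes above the array median on at least 3 arrays, 3 of 217 stress genes and 142 of 12548 genes were specific to CLP. The share of stress genes thus lay near the background. The 4 genes were Eif2ak1, Bach1, Atg13 and Fbxo32, from 4 different lists.

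Eif2ak1 (chromosome 5) encodes the heme-regulated kinase that phosphorylates eIF2α. It read 7.68, 7.18 and 7.54 in CLP, 7.62 to 8.48 over the 12 DN arrays and 8.66, 8.14 and 8.37 in LSK, so 1 CLP array overlapped the lowest DN array. It was lower in CLP than in LSK (log2 difference -0.92, SE 0.195, adjusted p = 0.0109) and than in the DN mean (-0.66, SE 0.163, adjusted p = 0.0308). The DN fractions differed from LSK by -0.42 to -0.14, none of them called. Against single fractions CLP was called below DN1 (-0.74, adjusted p = 0.0356) and not below DN2 (-0.78, adjusted p = 0.0527), DN3 (-0.50, adjusted p = 0.312) or DN4 (-0.61, adjusted p = 0.179). Bach1 (chromosome 16) encodes the repressor of antioxidant genes that heme inactivates. It read 8.23, 7.97 and 7.96 in CLP, 8.19 to 8.86 over the DN arrays and 8.74, 8.62 and 8.73 in LSK. The difference was -0.64 from LSK (SE 0.149, adjusted p = 0.0173) and -0.52 from the DN mean (SE 0.127, adjusted p = 0.0294), while the DN fractions lay within -0.26 to 0.01 of LSK. CLP was called against no single DN fraction, with differences of -0.65 to -0.38 and adjusted p of 0.061 to 0.189.

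Atg13 (chromosome 2) encodes a subunit of the ULK1 kinase complex that starts autophagy. It read 7.24, 7.84 and 7.83 in CLP, 7.94 to 8.56 over the DN arrays and 8.65, 8.5 and 8.55 in LSK, with all 3 CLP arrays below every DN array. The difference was -0.93 from LSK (SE 0.191, adjusted p = 0.00969) and -0.58 from the DN mean (SE 0.15, adjusted p = 0.0361). All 4 DN fractions lay below LSK as well, with differences of -0.36 to -0.33, and none was called, although DN4 came close (adjusted p = 0.0508). CLP was called against no single DN fraction, with differences of -0.59 to -0.57 and adjusted p of 0.0806 to 0.189. Fbxo32 (chromosome 15) encodes atrogin-1, a ubiquitin ligase subunit and FOXO target known from muscle wasting. It read 5.9, 6.13 and 5.84 in CLP, near background, and 6.46, 6.65 and 6.6 in LSK (-0.61, SE 0.152, adjusted p = 0.0234). The DN fractions were spread on both sides of LSK, with 7.19 in DN1, which was called higher than LSK (0.62, adjusted p = 0.00865), 6.86 in DN2, 6.23 in DN3 and 6.39 in DN4. The difference of CLP from the DN mean was -0.71 (SE 0.126, adjusted p = 0.00485). CLP was called below DN1 (-1.23, adjusted p = 7.13e-05) and DN2 (-0.90, adjusted p = 0.00345) and not below DN3 (-0.27, adjusted p = 0.52) or DN4 (-0.44, adjusted p = 0.22).

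Promoters of genes that met the rule are shown for the letters before their start sites, and no array here measured factor binding. RefSeq (GRCm38.p6) gave a promoter for Atg13, Bach1, Eif2ak1 and Rragd, and Fbxo32 is named only. The 250 bases before the start are printed 5′ to 3′ on the gene's strand, with motif matches on either strand in capitals. They lie at chr2:91710593-91710842 on the minus strand for Atg13, chr16:87698704-87698953 on the plus strand for Bach1 and chr5:143817542-143817791 on the plus strand for Eif2ak1.
Atg13: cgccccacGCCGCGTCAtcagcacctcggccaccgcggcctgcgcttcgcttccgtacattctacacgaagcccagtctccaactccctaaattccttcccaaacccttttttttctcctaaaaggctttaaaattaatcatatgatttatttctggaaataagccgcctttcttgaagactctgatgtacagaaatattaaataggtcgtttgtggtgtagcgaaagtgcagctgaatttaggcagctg
Bach1: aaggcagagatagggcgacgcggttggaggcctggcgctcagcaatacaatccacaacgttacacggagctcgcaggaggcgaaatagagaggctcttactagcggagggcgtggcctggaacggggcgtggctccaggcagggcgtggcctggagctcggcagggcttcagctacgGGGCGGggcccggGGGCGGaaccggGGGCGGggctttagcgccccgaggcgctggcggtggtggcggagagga
Eif2ak1: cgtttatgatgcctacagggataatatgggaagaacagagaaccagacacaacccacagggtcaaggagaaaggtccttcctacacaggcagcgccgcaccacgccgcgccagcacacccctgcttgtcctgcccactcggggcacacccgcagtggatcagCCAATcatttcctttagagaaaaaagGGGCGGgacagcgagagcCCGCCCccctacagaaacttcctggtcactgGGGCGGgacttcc

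Atg13 held 1 match to the antioxidant response element core (TGACNNNGC), which 10.2% of 32851 promoters of the same length hold. Bach1 held 3 matches to the GC box (GGGCGG) and Eif2ak1 held 3, with 1 match to the CCAAT box (CCAAT). These are held by 32.7% and 33.8% of promoters. None of the 4 genes held the E-box CACGTG (6.02% of promoters), the AP-1 site TGANTCA (6.75%), the C/EBP and ATF site TGATGNAA (3.45%) or the forkhead site TGTTTAC (3.17%). The promoter of Rragd held none of the 7 motifs, and no match overlapped another. A match describes the letters of this window only.

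A change was counted as missing in CLP when all 4 DN fractions were called in 1 direction against LSK, CLP was not, and CLP was called the other way against the DN mean. By this rule 1 of the 227 stress genes was missing in CLP, a rise, which is 0.441%, against 0.162% for rises and 0.0586% for falls over all genes. Among genes above the array median on at least 3 arrays it was 1 of 217 stress genes and 55 of 12548 genes. The gene was Rragd (chromosome 4), which encodes the RagD GTPase that brings mTORC1 to the lysosome when amino acids are present. It read 4.88, 5.5 and 6.77 in CLP and 4.94, 3.96 and 4.35 in LSK. The 12 DN arrays lay between 6.54 and 8.08, with group means that declined with stage (8.01, 7.31, 6.8 and 6.71 for DN1 to DN4).

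The rise of Rragd over LSK was called in every DN fraction, at 3.60 (DN1), 2.89 (DN2), 2.38 (DN3) and 2.29 (DN4). In CLP it was 1.30 (SE 0.443, adjusted p = 0.0797), and CLP was below the DN mean (log2 difference -1.49, SE 0.241, adjusted p = 0.00252). The 3 CLP arrays did not read alike. Replicates 1 and 2 lay at or under background with LSK, and replicate 3 lay within the DN range. Without CLP replicate 1, with array weights, and in 1 model of all 18 arrays, the rise over LSK was called in CLP too (1.72, 1.37 and 1.30). Against single fractions CLP was called below DN1 (-2.30, adjusted p = 9.37e-05) and DN2 (-1.59, adjusted p = 0.0066) and was not called against DN3 (-1.08, adjusted p = 0.11) or DN4 (-0.99, adjusted p = 0.135). Its difference from the DN mean ranged from -2.02 to -1.07 over the alternatives.

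**Figure D5:**
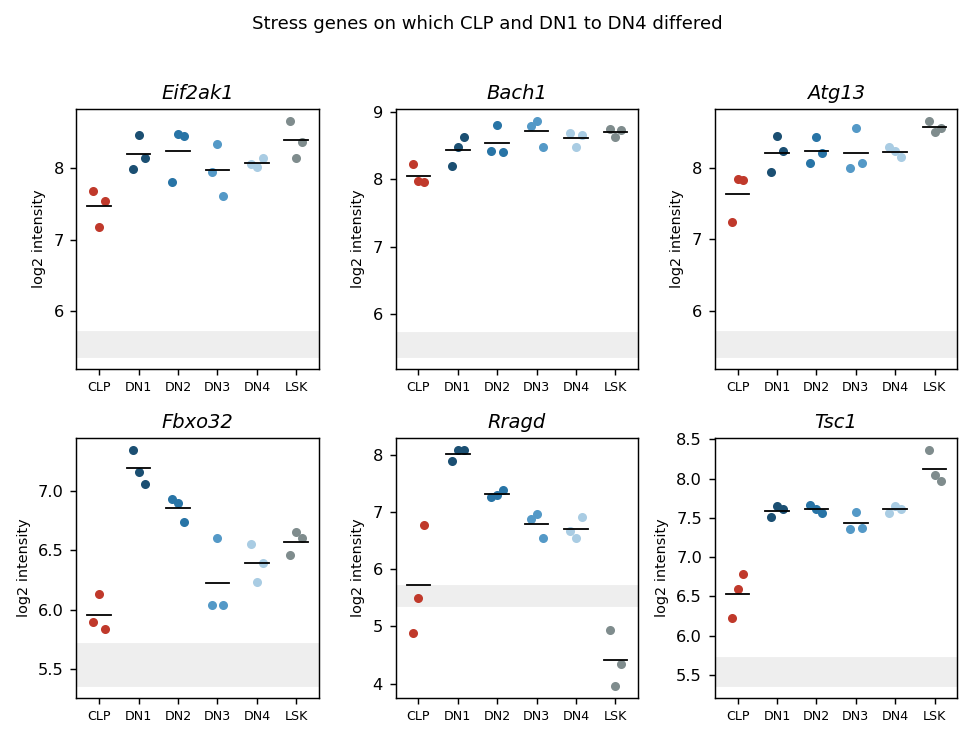
Log2 intensity on each of the 18 arrays of the 4 stress genes that met the rule for a change specific to CLP (Eif2ak1, Bach1, Atg13, Fbxo32), of Rragd, whose rise in DN1 to DN4 was not called in CLP, and of Tsc1. Points are arrays, black lines are means of 3 arrays and the grey band is the background range. The Rragd values of CLP spread from 4.88 to 6.77, and the Tsc1 values of CLP lie below all DN arrays.

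The calls of the 4 specific genes rest on small margins. Under 26 alternatives Eif2ak1 met the rule in 20, Bach1 and Fbxo32 in 19 each and Atg13 in 13, while Rragd met its own rule in 23. Without LSK replicate 1, and with array weights, none of the 227 stress genes was specific to CLP. Without CLP replicate 3 only Atg13 was. The adjusted p against the DN mean ranged over the alternatives from 0.0107 to 0.232 for Atg13, from 0.0168 to 0.177 for Bach1, from 0.0156 to 0.166 for Eif2ak1 and from 0.000747 to 0.0666 for Fbxo32. The direction of all 4 held throughout.

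Over all genes the differences between CLP and the DN mean were led by genes outside the stress lists. Named by size among called genes without overlap between the 3 CLP and 12 DN arrays, with small RNA genes, predicted genes and receptor segments left out, the largest rise was in Pde9a, a phosphodiesterase that degrades cyclic GMP. It read 9.61, 10.08 and 10.08 in CLP, 4.71 to 9.54 over the DN arrays and 6.2, 6.26 and 7.34 in LSK (2.59 against the DN mean, SE 0.146, adjusted p = 3.54e-08). Its DN values split, with 5.06 in DN1 and 5.41 in DN2 beside 9.39 in DN3 and 9.48 in DN4. Cpa3, a mast cell protease, read 10.36, 9.41 and 10.78 in CLP, 6.73 to 9.08 over the DN arrays and 8.15, 7.42 and 7.38 in LSK (1.94, SE 0.224, adjusted p = 0.000152). Mcpt8 and Fcer1a, other markers of mast cells and basophils, lay under background in every CLP array.

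The largest fall was in Ddx5 (chromosome 11), an RNA helicase of splicing and microRNA processing. It read 7.9, 5.81 and 7.87 in CLP, 9.56 to 10.9 over the DN arrays and 9.93, 10.03 and 9.86 in LSK. The difference was -3.04 from the DN mean (SE 0.323, adjusted p = 6.95e-05) and -2.74 from LSK (SE 0.486, adjusted p = 0.0045), and it stayed between -3.40 and -2.35 against the DN mean over 26 alternatives. No DN fraction was called lower than LSK, so Ddx5 met the rule for a change specific to CLP. Il2ra (-2.08) encodes the sort marker CD25, which is high in DN2 and DN3 by the gates, so its fall from the DN mean is no finding. CLP was also called below DN1 (-0.73, adjusted p = 0.00408) and not below DN4 (-0.4, adjusted p = 0.223). The zinc finger genes Zfp709 (-1.32), Zfp248 (-1.12), Zxda (-1.18) and Zxdb (-1.11), the lipid phosphatase Mtmr1 (-1.18), the mitochondrial ornithine carrier Slc25a15 (-1.10), the translation regulator Cpeb4 (-1.09) and the mitochondrial thymidine kinase Tk2 (-1.08) completed the falls. A second probe set of Zfp248, under background, went the other way (0.37), and with the mean of its probe sets Zfp248 was not called (-0.38, adjusted p = 0.359). A second probe set of Zfp709, above background, differed by -0.44. In all 161 genes were specific to CLP and 49 were missing in it. Without LSK replicate 1 these counts were 60 and 47, and without CLP replicate 1 they were 435 and 114.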

How the data were processed

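RNA of sorted cells was amplified and hybridised to Affymetrix arrays, per the labels' protocols. Each deposited value is the log2 signal of a probe set after RMA, which the authors made with the oligo package per the submitters' processing notes (versions and genome build are not given in the sources used here), and they were taken as they are. Of 41345 probe sets 23521 carry 1 gene symbol, 1814 several and 16010 none, and the last 2 kinds were left out. The brightest of the first kind by its mean over 18 arrays stood for each gene. Arrays carry no counts, so the number of arrays limits the precision.

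CLP and each DN fraction were compared with LSK in a fit of their own (6 arrays each) and CLP with the DN fractions in 1 model of the 15 lymphoma arrays, with limma 3.58.1 in R 4.3.3 (two-sided moderated tests from lmFit and eBayes, p adjusted by Benjamini-Hochberg over 22180 genes, threshold 0.05). All adjusted p values are from limma, and SE is its standard error. The code was tested on simulated data.

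Members and lists were chosen with earlier results of these data known, so counts over them are descriptions. Named are the stress genes specific to or missing in CLP, up to 4 members of each stress list called against LSK and up to 3 called against the DN mean by size, the 10 largest rises and falls against the DN mean, and the genes that check the labels. The motifs, Foxo1, Mir505 and the single members that rose were chosen after their values were seen. Samples with the same replicate number were checked for shared deviations from their group means. The correlation was -0.085 to 0.065 between CLP and LSK and -0.193 to -0.019 between CLP and DN1. It was 0.012 to 0.306 with DN2, 0.047 to 0.119 with DN3 and 0.025 to 0.289 with DN4. Deviations from a group mean cancel within the group, so the mean for other numbers is no independent comparison. Whether arrays of 1 number share a lymphoma cannot be told from this. The main fits did not pair them, and a replicate block was run as an alternative. Alternatives were a filter on low values, quantile normalization, the mean of probe sets, a trended and robust prior, a replicate block, array weights, all 18 arrays in 1 model, no genes on X and Y, and leaving out each array or DN fraction.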

Additional observations from a re-analysis of the deposited data

Results flagged for a closer look

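The genes below differ between CLP and the mean of DN1 to DN4 in the change they show from LSK, by the test of the difference itself in the 15 lymphoma arrays (limma, adjusted p under 0.05). Not all of them differ from each DN fraction. Values are log2 differences, CLP minus the mean of DN1 to DN4. Groups of 3 arrays are too small for a test of single outlying arrays.

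Among stress genes Tsc1 (-1.03), Rragd (-1.49) and Cryab (1.09) were called under all 26 alternatives, with ranges of -1.16 to -0.88, -2.02 to -1.07 and 0.73 to 1.34. A second probe set of Cryab, at background, differed by 0.39. Eif2ak1 (-0.66), Bach1 (-0.52), Atg13 (-0.58) and Fbxo32 (-0.71) are the genes specific to CLP. Wipi2 (-0.53) was called in 25 of 26 alternatives, Slc38a2 (-0.46) and Ptgs2 (0.45) in 23, Adm (0.81) and Trp53inp1 (-0.62) in 22, and Gclc (-0.51) and Ier5 (0.52) in 21. Ctsb (-0.48) was called in 17, Txnip (-0.38) in 13, Rel (-0.83) in 9 and Foxo1 (-0.46) in 7.

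Outside the stress lists, among called genes without overlap between the CLP and DN arrays and with small RNA genes, predicted genes and receptor segments left out, the genes with the largest rises were Pde9a (2.59), Cpa3 (1.94), H2bc9 (1.64), Adssl1 (1.27), Ociad2 (1.16), Naip2 (1.09), Ifitm1 (1.02), Ropn1l (0.89), Parp8 (0.87) and Cox4i2 (0.84). Cpa3, H2bc9, Ociad2 and Ifitm1 were called above every DN fraction, and Adssl1 above all but DN3. Pde9a, Naip2, Parp8 and Cox4i2 were called above DN1 and DN2 and not above DN3 or DN4. Ropn1l was called above DN1 only. Those with the largest falls were Ddx5 (-3.04), Il2ra (-2.08), Zfp709 (-1.32), Mtmr1 (-1.18), Zxda (-1.18), Zfp248 (-1.12), Zxdb (-1.11), Slc25a15 (-1.1), Cpeb4 (-1.09) and Tk2 (-1.08). Il2ra encodes the sort marker CD25, so its fall was fixed by the gates of DN2 and DN3 and is no finding. Cpeb4 was called below DN1 and DN2 only, and Zfp248 and Tk2 were not called below DN3. Second probe sets of Zfp709 and Zfp248 differed by -0.44 and 0.37.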

How the results depend on the processing

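No named gene that was called reversed its direction under any of these alternatives. Of 1740 values of named genes against LSK 1631 kept their side of the threshold, and of 3240 against the DN mean 3089 did. Leaving out single arrays gave 2559 to 4598 called genes against LSK (3928 with all arrays), with 869 to 1975 higher and 59 to 90 stress genes lower. Against the DN mean it gave 609 to 1939 called genes (984 with all), with 183 to 895 higher, 426 to 1044 lower and 10 to 28 stress genes. The highest of these counts came without CLP replicate 1 and the lowest without CLP replicate 2. Stress genes specific to CLP numbered 0 to 4 and those missing in CLP 1 to 2, and over all genes 60 to 435 and 29 to 114. With all 18 arrays in 1 model 6140 genes were called against LSK, 2616 of them higher, with 311 specific to CLP and 0 stress genes missing in it. With array weights 189 genes were called against the DN mean (67 higher, 122 lower, 3 stress genes), with 44 and 0 stress genes specific to CLP and 14 and 0 missing in it. Leaving out the DN1 fraction gave 486 called genes (141 higher, 345 lower, 8 stress genes), and leaving out DN2 gave 434 (143, 291 and 7). Quantile normalization gave 2 stress genes missing in CLP. With a replicate block 3601 genes were called against LSK and 1259 against the DN mean, with 4 stress genes specific to CLP and 1 missing. CLP arrays were closest to their own number in 0 of 3 cases with DN1, 2 with DN2, 3 with DN3, 2 with DN4 and 1 with LSK. The cause of these shifts was not tested, except that settings without a fraction or an array use fewer arrays. Levels near background limit Fbxo32 and Rragd. The alternatives that leave out DN arrays, X and Y genes or use array weights were partly added after the data were seen.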

Other observations

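A small RNA stood further below the DN fractions in CLP than any named gene. The probe set named Mir505 (chromosome X) read 3.5, 3.41 and 3.85 in CLP, 6.02 to 8.03 over the 12 DN arrays and 6.55, 7.13 and 6.04 in LSK. All CLP values lay under background and no other array did. The log2 difference was -3.32 from the DN mean (SE 0.24, adjusted p = 8.38e-07) and -2.99 from LSK (SE 0.267, adjusted p = 8e-05), and it stayed between -3.48 and -3.19 from the DN mean over 25 alternatives. The probe set is on an array of total RNA, so it does not tell the mature microRNA from its precursor or from RNA of the region. The mature sequences are shown because no other named gene lay so far from the DN mean. They come from RefSeq (GRCm38.p6, minus strand of chromosome X), with the seed, bases 2 to 8, in capitals.
mmu-miR-505-3p: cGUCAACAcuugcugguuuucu
mmu-miR-505-5p: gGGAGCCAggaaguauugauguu

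MicroRNA probe sets as a class did not shift in 1 direction. Of 483 probe sets named for a microRNA 14 were higher and 13 lower in CLP than in the DN mean, with a median difference of 0.03, against 1.51% higher and 2.93% lower over all genes.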
